A study of Mus musculus with 99 samples.

Results

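A set of 205 RYBP sites in mouse embryonic stem cells (ESCs) carried no peak of either PCGF2 or PCGF6. They were 6.86% of the 2989 RYBP ChIP-seq peaks of Parental cells without OHT. The sites were chosen by 1 rule: a RYBP peak had to share no base with any of the 5186 PCGF2 peaks and none of the 7882 PCGF6 peaks of the same cells. Of the other RYBP peaks, 1738 overlapped a PCGF2 peak and 1046 overlapped a PCGF6 peak only. These are called below the PCGF2 sites and the PCGF6 sites.

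The study asked what the catalytic activity of RING1B contributes to Polycomb repression. The Parental ESCs carry ROSA26::creERT2, are Ring1A-/- and are Ring1B fl/fl, so that 4-hydroxytamoxifen (OHT, 0.5 µM for 72 h) removes RING1B while ethanol (−OHT) does not. From these cells came clones that express a 2xFlag-HA-tagged mouse RING1B from a pCAG promoter under puromycin selection, either wild type (RING1B WT) or with the I53S substitution, which abolishes ubiquitin ligase activity (RING1B I53S). All lines were grown in 2i/LIF, and all of them, controls included, lack RING1A. MTF2 knockout (KO) lines are Cas9-edited clones of these cells, and the Eed fl/fl line, which also carries ROSA26:creERT2, was derived from blastocysts and loses the PRC2 subunit EED on OHT. The data were 74 peak lists, of which 4 were inputs of the MTF2 KO lines, and 16 RNA-seq libraries with 2 replicates per group. There was 1 ChIP-seq library per antibody and condition (2 for MTF2 and JARID2 in RING1B WT and I53S cells after 72 h of OHT), so shares of sites are given with 95% Wilson intervals that cover counting over sites only, and no p-value was computed from them.

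PRC1 is a histone H2A ubiquitin ligase built on RING1A or RING1B and 1 PCGF protein. Canonical PRC1 (PCGF2 or PCGF4 with a CBX protein) binds the H3K27me3 that PRC2 deposits, whereas variant PRC1 holds RYBP or its paralogue YAF2 in place of CBX and deposits most H2AK119ub1. PCGF6 forms the variant complex PRC1.6, with MGA, MAX and E2F6, while PCGF1, PCGF3 and PCGF5 form other RYBP-containing complexes. PRC2.1 contains MTF2 (and EPOP) and PRC2.2 contains JARID2 and AEBP2, of which JARID2 reads H2AK119ub1. PCGF1, PCGF3 and PCGF5 were not profiled by the ChIP-seq analysed here. Their mRNAs were all counted in Parental −OHT cells, at 12.9 and 9.52 CPM per kb for Pcgf1, 2.67 and 3.16 for Pcgf3, and 0.490 and 0.568 for Pcgf5 (level in each of 2 libraries; CPM is the read count scaled to library size, here divided by exon length).

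The windows below are examples picked by RYBP score and by the lines that kept a peak, and not a random sample of the sites. Each is the centre of a RYBP peak, read 5′ to 3′ on the plus strand of mm10 (GRCm38.p6, RefSeq), with every CG in capitals and with untranslated bases left out. Coding bases were kept, so a stretch can hold protein-coding sequence. The first site kept a RYBP peak in both RING1B WT and RING1B I53S cells after OHT, and lay near the start sites of Hcrt (the orexin precursor) and Kcnh4 (a potassium channel), at chr11:100761877-100762176.
Hcrt/Kcnh4: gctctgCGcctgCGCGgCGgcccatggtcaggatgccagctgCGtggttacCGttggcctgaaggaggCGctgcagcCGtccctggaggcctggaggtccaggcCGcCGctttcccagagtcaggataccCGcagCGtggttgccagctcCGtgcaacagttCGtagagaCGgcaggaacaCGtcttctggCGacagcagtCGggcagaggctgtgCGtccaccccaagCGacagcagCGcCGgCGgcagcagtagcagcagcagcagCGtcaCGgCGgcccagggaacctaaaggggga
The next 2 kept a RYBP peak in RING1B WT cells and not in RING1B I53S cells. Both are intergenic, at chr5:120833844-120834143 and chr11:101696190-101696489.
chr5 intergenic: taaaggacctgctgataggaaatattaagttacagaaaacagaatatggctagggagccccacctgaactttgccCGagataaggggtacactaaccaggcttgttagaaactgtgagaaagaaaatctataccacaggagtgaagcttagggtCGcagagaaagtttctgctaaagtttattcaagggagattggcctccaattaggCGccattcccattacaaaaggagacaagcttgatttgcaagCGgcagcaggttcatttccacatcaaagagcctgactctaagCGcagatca
chr11 intergenic: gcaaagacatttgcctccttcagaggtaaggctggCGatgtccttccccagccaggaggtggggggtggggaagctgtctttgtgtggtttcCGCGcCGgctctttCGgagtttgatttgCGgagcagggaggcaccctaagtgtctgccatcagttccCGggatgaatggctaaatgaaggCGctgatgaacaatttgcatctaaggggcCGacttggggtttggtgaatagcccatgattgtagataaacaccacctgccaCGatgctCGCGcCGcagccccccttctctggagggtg
The site at Taco1, a mitochondrial translation activator, kept its peak in RING1B I53S cells and not in RING1B WT cells (chr11:106065880-106066060, shown after its values were seen).
Taco1: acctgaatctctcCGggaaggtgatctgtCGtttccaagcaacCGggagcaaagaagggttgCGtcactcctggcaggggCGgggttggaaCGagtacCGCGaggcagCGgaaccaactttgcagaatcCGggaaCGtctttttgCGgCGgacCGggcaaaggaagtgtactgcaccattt
The site at the start of Sdhaf3 (a succinate dehydrogenase assembly factor, chr6:6956027-6956188) had a high RYBP score and kept no peak in either line.
Sdhaf3: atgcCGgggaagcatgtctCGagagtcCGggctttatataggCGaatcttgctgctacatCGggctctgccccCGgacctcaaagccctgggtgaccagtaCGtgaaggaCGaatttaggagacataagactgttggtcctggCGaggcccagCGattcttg
The stretches printed held 26 CG in 300 bases (Hcrt/Kcnh4), 14 in 181 (Taco1) and 10 in 162 (Sdhaf3). The whole windows of 300 bases, untranslated bases included, held 24 CG at Taco1 and 27 at Sdhaf3. The chr5 and chr11 intergenic windows held 5 and 13 CG in 300 bases.

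The sites were weak RYBP peaks in relatively CpG-poor DNA, and fewer of them lay at promoters. The RYBP score, the −log10 p of the peak caller with a floor of 10, had a median of 12.1 (range 10.0 to 31.7) and reached 20 at 7 of 205 sites. Its median was 14.1 at the PCGF6 sites and 14.1 at the PCGF2 sites. The median width was 626 bp, against 737 and 967 bp. Just inside the rule were sites 112, 288 and 391 bp from the nearest PCGF2 or PCGF6 peak, and 11 sites had such a peak within 1 kb. Just outside were RYBP peaks that shared 88, 138 and 142 bp with one.

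Of the 205 sites, 141 (68.8%, 62.1 to 74.7) had their centre within 2.5 kb of an annotated start site, 8 lay in an exon, 13 in an intron and 43 (21%) between genes. The PCGF6 and PCGF2 sites were near a start site in 87.9% and 84.8% of cases and intergenic in 6.21% and 6.16%. Intergenic sites were thus more frequent where neither PCGF protein had a peak. Over windows of 300 bases, the median GC content was 60.0%, against 64.3% at PCGF6 and 66.3% at PCGF2 sites. The median CpG observed over expected was 0.663, against 0.802 and 0.794, and 0.370 at all 132616 annotated start sites. CpG-rich windows (GC of at least 50% and observed over expected of at least 0.6) made up 53.2% of the sites, 76.2% of PCGF6 sites and 82.2% of PCGF2 sites. Within the 205, 69.5% of the sites near a start site and 17.2% of the others were CpG-rich, so the distal sites accounted for most CpG-poor windows.

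The E-box CACGTG, the sequence that MAX-containing dimers bind, was rare at these sites. It was present on either strand in 6 windows (2.93%), against 20.0% of PCGF6 sites, a difference of −17.1 percentage points (95% Newcombe interval −20.0 to −13.0). The share was 10.7% at PCGF2 sites (difference −7.78, −9.98 to −4.19) and 5.84% at all start sites. The USF motif GTCACGTG, which contains the E-box, was found in 0.976% of the sites and 4.59% of PCGF6 sites. The YY1 motif AANATGGC was found in 6.83%, 4.59% and 2.24% of these, PCGF6 and PCGF2 sites. For the SP/KLF motif GGGGCGGG the shares were 13.2%, 16.3% and 14%. At all start sites YY1 was at 7.21% and SP/KLF at 12.8%, so neither share stood out from that background. Both motifs were more frequent at the sites on chromosome 11 (YY1 10.6%, SP/KLF 22.4%) than at those off it (4.17% and 6.67%). The intervals of these shares overlapped for YY1 and not for SP/KLF (14.8 to 32.3 against 3.42 to 12.6). Motifs at PCGF6 and PCGF2 sites were not split by chromosome. A match describes the letters in the window and not binding. The chr5 intergenic window above holds 1 YY1 match.

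Chromosome 11 held 85 of the 205 sites (41.5%). It held 24.4% of all RYBP peaks, 9.58% of PCGF2 peaks and 7.47% of protein-coding genes. The RYBP lists after OHT were also rich in it, with 47.5% of peaks in Parental, 29.2% in RING1B WT and 39.0% in RING1B I53S cells, as was the RING1B list of Parental +OHT cells (82.6%), whose Ring1B gene is deleted. Sites on this chromosome were CpG-poorer than the others (median observed over expected of 0.539 against 0.713) and carried H2AK119ub1 peaks in 45.9% against 22.5% of cases. What sets chromosome 11 apart was not tested, and values without it are given beside the results below.

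RYBP was rarely detected at these sites in any of the 3 lines after OHT. No RYBP library of the RING1B WT or RING1B I53S line without OHT was analysed here, so the effects of clone and OHT on these shares cannot be told apart. A site was counted as kept where it shared at least 1 bp with a RYBP peak of the other library. In Parental +OHT cells, 2 of 205 sites (0.976%, 0.268 to 3.49) had a RYBP peak. In RING1B WT +OHT cells 9 did (4.39%, 2.33 to 8.13), and in RING1B I53S +OHT cells 10 did (4.88%, 2.67 to 8.75). The intervals of the RING1B WT and RING1B I53S shares overlapped almost fully. The PCGF6 sites kept a peak in 1.24%, 24.6% and 19.6% of cases in the same 3 lines, and the PCGF2 sites in 1.15%, 39.1% and 18.9%.

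The difference from PCGF6 sites was −20.2 percentage points (−23.6 to −15.7) in RING1B WT and −14.7 (−18.1 to −10.2) in RING1B I53S cells. The difference from PCGF2 sites was −34.7 (−37.8 to −30.4) in RING1B WT and −14.1 (−17.0 to −9.80) in RING1B I53S cells. In Parental +OHT cells, which kept few RYBP peaks of any kind, the differences were −0.267 (−1.39 to 2.30) and −0.175 (−1.12 to 2.37), so no difference was detectable there.

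Since these sites had lower scores than the others, the comparison was repeated among sites of score 10 to under 20. There, 3.54% of 198 sites kept a peak in RING1B WT cells, against 14.3% of PCGF6 and 30.1% of PCGF2 sites. The differences were −10.8 (−13.9 to −6.55) and −26.6 (−29.6 to −22.3). In RING1B I53S cells 4.55% did, against 13.3% and 12.5%, with differences of −8.79 (−12.1 to −4.37) and −7.99 (−10.8 to −3.80). The gap narrowed within this range, and its interval stayed below 0 in both lines. Scores were bounded and not matched by this, since the middle 50% of all 205 sites scored 11 to 13.2, against 11.8 to 18.5 at PCGF6 and 11.7 to 17.9 at PCGF2 sites. Without chromosome 11, the shares were 0.833%, 3.33% and 2.5% of 120 sites in Parental, RING1B WT and RING1B I53S +OHT cells, and the RING1B I53S share on chromosome 11 alone was 8.24%. The differences from PCGF6 sites without chromosome 11 were −19.6 (−23.3 to −13.9) in RING1B WT and −12.0 (−15.2 to −6.86) in RING1B I53S cells. The +OHT RYBP lists held 61, 1177 and 697 peaks in Parental, RING1B WT and RING1B I53S cells, and no second RYBP library of Parental −OHT cells was analysed here, so the share of such sites that a repeat without OHT would recover is not known. The label of the Parental +OHT RYBP library is spelled differently from those of the other Parental libraries, and the library was taken at its label.

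**Figure D1:**
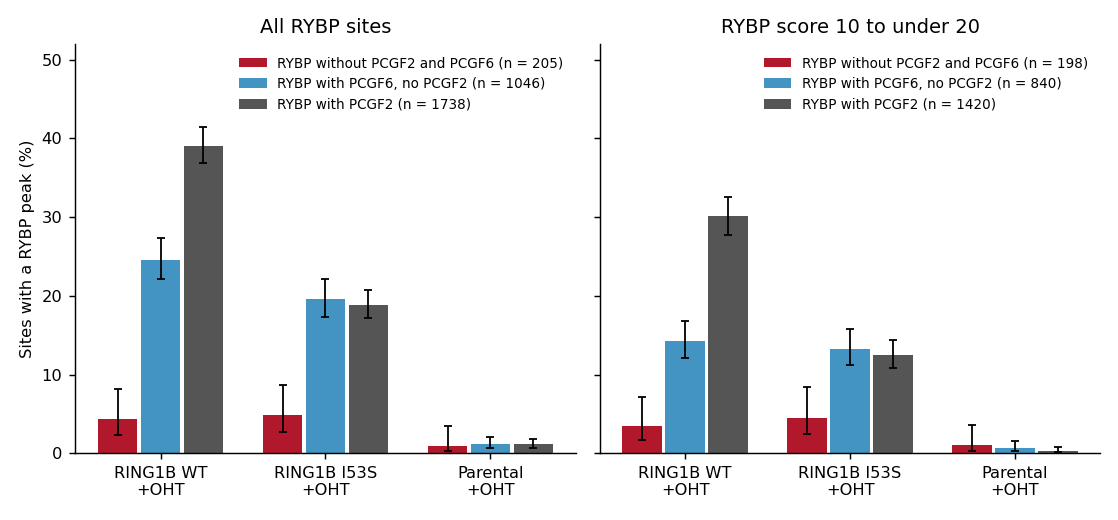
Share of RYBP sites of Parental −OHT cells with a RYBP peak after OHT (y axis, %), by line, for sites without PCGF2 and PCGF6 (red), with PCGF6 only (blue) and with PCGF2 (grey), over all sites (left) and over sites of RYBP score 10 to under 20 (right); bars are shares of 1 library and whiskers are 95% Wilson intervals over sites. The red bars lie at 4.39% in RING1B WT and 4.88% in RING1B I53S cells, below both other classes in each panel for these lines, while no class stands out in Parental cells.

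The RYBP peaks called in the RING1B WT and RING1B I53S lines fell mostly on different sites. Only the Hcrt/Kcnh4 site had a peak in both (score 10.2 in Parental −OHT, 10.3 in RING1B WT and 14.1 in RING1B I53S), while 8 sites had one in RING1B WT only, 9 in RING1B I53S only and 187 in neither. At the PCGF6 sites 110 were shared by both lines, 147 were in RING1B WT only and 95 in RING1B I53S only. Peaks at the kept sites scored 10.3 to 14.2 in RING1B WT and 10.9 to 29.7 in RING1B I53S cells. Many were near the floor of 10, so a site without a call in the other line may lie just under it. The few sites kept by the 205 are described next, without a test, since each group rests on the calls of 1 library.

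Of the 9 sites kept in RING1B WT cells, 4 were near a start site, 8 had an H2AK119ub1 peak in Parental −OHT cells, 9 a JARID2 peak and 5 an H3K27me3 peak, and their median CpG observed over expected was 0.504. Of the 10 kept in RING1B I53S cells, 9 were near a start site, 2 had H2AK119ub1 and 1 had H3K27me3, and the median CpG ratio was 0.866. By these calls, RING1B WT sites mostly had an H2AK119ub1 peak and were CpG-poor, whereas RING1B I53S sites were mostly CpG-rich promoters without one. Chromosome 11 held 5 of the 9 RING1B WT sites and 7 of the 10 RING1B I53S sites.

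The strongest site of all 205, near the start sites of Gnb2 (a G protein beta subunit) and Epo (erythropoietin) on chromosome 5, had a score of 31.7 in Parental −OHT and 20.4 in RING1B I53S cells, with no peak in RING1B WT cells. The chr5 intergenic site shown above had a score of 28.5 and fell to 14.2 in RING1B WT cells, with no peak in RING1B I53S cells. Hes3, a basic helix-loop-helix repressor, had a site that kept a score of 12.5 from 18.3 in RING1B WT cells. The site of the noncoding 5730455P16Rik scored 13.6 without OHT and 29.7 in RING1B I53S cells, the largest increase among the kept sites. Of the 2 sites with a RYBP peak in Parental +OHT cells, the promoter of Ccdc57 went from 15.7 to 15.3, and had 16.7 in RING1B I53S cells.

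In Parental −OHT cells, MTF2 peaks were the most frequent at these sites and RING1B peaks were rare. The lists differed in length, with 24485 peaks for MTF2, 14778 for JARID2, 5073 for RING1B and 1331 for AEBP2, so the order of antibodies also depends on how many peaks each library gave. MTF2 had a peak at 178 sites (86.8%), JARID2 at 120 (58.5%), SUZ12 at 87 (42.4%), EPOP at 83 (40.5%), H2AK119ub1 at 66 (32.2%) and H3K27me3 at 53 (25.9%). CBX7 had a peak at 16 sites (7.80%), RING1B at 11 (5.37%) and AEBP2 at 2 (0.976%). The 4 input lists, all of MTF2 KO lines, held only 9 to 19 peaks each and overlapped none of the sites, so they give no background for these shares. At PCGF2 sites RING1B was at 96.1%, CBX7 at 93.2% and H3K27me3 at 93.7%. At PCGF6 sites RING1B was at 27.3%, H2AK119ub1 at 39.6%, SUZ12 at 43.7%, JARID2 at 48.5% and MTF2 at 84.3%. EPOP was at 306 and H3K27me3 at 250 of the 1046 PCGF6 sites. The sites therefore resembled PCGF6 sites in SUZ12, MTF2 and H3K27me3. Over all chromosomes, their shares of JARID2 and EPOP were higher and that of RING1B was lower. Without chromosome 11, JARID2 was at 55.0% (46.1 to 63.6) and EPOP at 29.2% (21.8 to 37.8) of the sites. That JARID2 interval held the 48.5% of PCGF6 sites, and that EPOP share was close to 306 of 1046. Marks at PCGF6 sites were not split by chromosome, so no excess of JARID2 or EPOP is read off chromosome 11.

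PRC2 occupancy and H3K27me3 did not go together at many of the sites. SUZ12 and H3K27me3 were both present at 38 sites (18.5%), SUZ12 without H3K27me3 at 49 (23.9%), and neither at 103 (50.2%). The same shares were 18.4%, 25.3% and 50.8% at PCGF6 sites. MTF2 was the only one of the 9 other antibodies with a peak at 46 sites (22.4%), and 21 sites (10.2%) had no peak of any of them, against 19.2% and 8.70% of PCGF6 sites. H2AK119ub1 was found without a RING1B peak at 61 sites (29.8%), at 21.8% of PCGF6 sites and at 1.90% of PCGF2 sites. The sites away from start sites carried more histone marks: 48.4% of 64 had H2AK119ub1 and 39.1% had H3K27me3, against 24.8% and 19.9% of the 141 near a start site. SUZ12 ran the other way, at 34.4% and 46.1%. Chromosome 11 held 53.1% of the sites away from start sites and 36.2% of those near one. Its sites carried more H2AK119ub1 (45.9% against 22.5%) and H3K27me3 (31.8% against 21.7%), so distance and chromosome were not separated. Without chromosome 11, H2AK119ub1 was at 22.5%, H3K27me3 at 21.7%, EPOP at 29.2% and MTF2 at 81.7% of the sites.

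**Figure D2:**
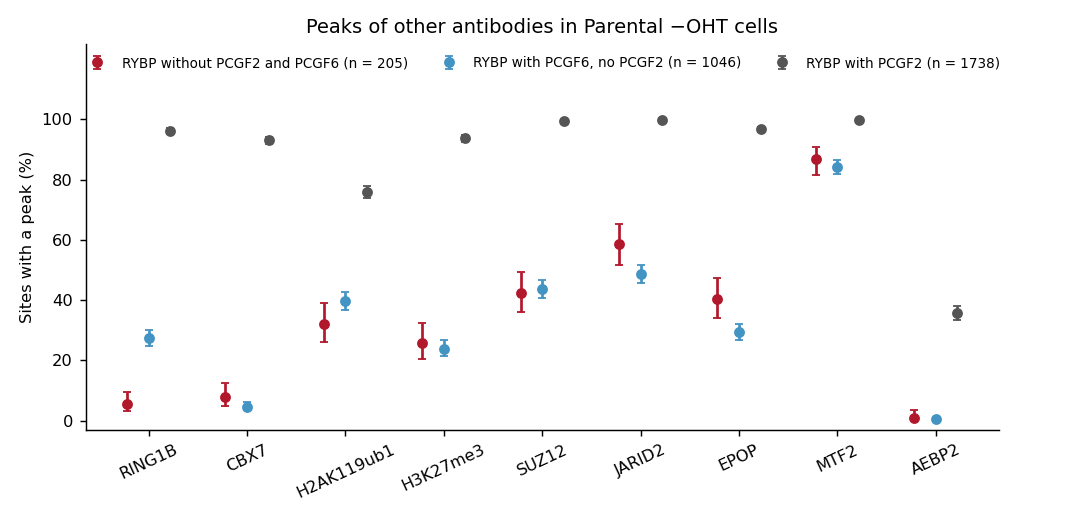
Share of sites with a peak of each of 9 other antibodies in Parental −OHT cells (y axis, %), for sites without PCGF2 and PCGF6 (red, n = 205), with PCGF6 only (blue, n = 1046) and with PCGF2 (grey, n = 1738); points are shares of 1 library and whiskers are 95% Wilson intervals over sites. MTF2 lies at 86.8% and RING1B at 5.37% in red, and the grey points lie above the red for every antibody.

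After OHT, H2AK119ub1, H3K27me3, SUZ12 and EPOP peaks at these sites were more frequent in RING1B WT than in Parental or RING1B I53S cells. RING1B and PCGF2 peaks were near 0 in every line: RING1B was at 4 sites in RING1B WT, 1 in Parental and 5 in RING1B I53S cells, and PCGF2 at 0, 2 and 3. H2AK119ub1 peaks were at 85 sites (41.5%) in RING1B WT, 61 (29.8%) in Parental and 40 (19.5%) in RING1B I53S cells. Of the 66 sites marked in Parental −OHT cells, 61 (92.4%) were still marked in RING1B WT, 36 (54.5%) in Parental and 31 (47.0%) in RING1B I53S cells. Another 24, 25 and 9 of the 139 sites without a peak had one in these lines. With wild-type RING1B, an H2AK119ub1 peak was thus called at nearly all formerly marked sites, and a RYBP peak at 8 of the same 66. The RING1B WT lists held 15830 H2AK119ub1 and 1177 RYBP peaks, so these counts also depend on how many peaks each library gave. Peaks were called within each library and no spike-in scaling enters a peak list, so a peak shows local enrichment and not the amount of the mark. Parental +OHT cells, which lack both ubiquitin ligases, still gave 5450 H2AK119ub1 peaks.

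H3K27me3 peaks fell from 53 sites to 11 of those 53 in Parental +OHT and 8 in RING1B I53S +OHT cells, and 41 remained in RING1B WT cells. SUZ12 was still at 50 of its 87 sites in RING1B WT, 40 in Parental and 18 in RING1B I53S cells. EPOP, which marks PRC2.1, was at 62 of 83 sites in RING1B WT, 21 in Parental and 24 in RING1B I53S cells. For all 3, fewer sites kept a peak in Parental and RING1B I53S than in RING1B WT cells. For SUZ12 the Parental and RING1B WT intervals overlapped (46.0%, 35.9 to 56.4, and 57.5%, 47.0 to 67.3). No RING1B WT or RING1B I53S library without OHT was analysed for these 3, so clone and RING1B activity cannot be told apart. Line against line, H2AK119ub1 was at 48 sites in RING1B WT only and at 3 in RING1B I53S only. The same counts were 38 and 2 for H3K27me3, and 37 and 3 for SUZ12. In this order, they were 251 and 20, 128 and 3, and 184 and 12 at PCGF6 sites. At PCGF2 sites they were 564 and 30, 828 and 0, and 631 and 1. The skew was thus not particular to these sites. The RING1B WT and RING1B I53S lists held 15830 and 3120 H2AK119ub1 peaks, 19761 and 18909 H3K27me3 peaks, and 7156 and 3475 SUZ12 peaks.

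The PRC2 subtype proteins differed in their loss. JARID2 was at 120 sites in Parental −OHT cells, and of these at 2 in Parental +OHT, at 27 and 42 in the 2 RING1B WT libraries and at 1 and 0 in the 2 RING1B I53S libraries. MTF2, at 178 sites, was kept at 79 in Parental +OHT, at 79 and 75 in RING1B WT and at 16 and 64 in RING1B I53S cells. The MTF2 libraries of RING1B I53S thus differed by more than the gap between the lines, so no difference between the lines can be read from MTF2. JARID2 peaks were fewer in both RING1B I53S libraries than in either RING1B WT library. At 48 h of OHT, JARID2 was at 2.44% of sites in Parental, 20.5% in RING1B WT and 0% in RING1B I53S cells (0 of 205 allows up to 1.84% by the Wilson interval), and MTF2 at 44.9%, 48.3% and 42.9%. Before OHT, JARID2 was at 28.3% of the sites in RING1B WT and 22% in RING1B I53S cells, from lists of 7446 and 6563 peaks, and MTF2 at 57.6% and 50.7%, from lists of 13559 and 11623. These lists were shorter than those of Parental −OHT cells, where the sites were chosen, so no difference between the lines is read from them.

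Without chromosome 11, H2AK119ub1 was at 31.7% of the 120 sites in RING1B WT, 24.2% in Parental and 15.0% in RING1B I53S +OHT cells. H3K27me3 was at 16.7%, 4.17% and 3.33%, and SUZ12 at 25%, 24.2% and 8.33%. The order of the lines was the same for these marks, and the gap in SUZ12 between RING1B WT and Parental cells was that between 30 and 29 sites. In MTF2 KO cells, SUZ12 was at 18% of the 205 sites without OHT, and H3K27me3 at 6.83%. After OHT, SUZ12 was at 18.5% in Parental, 21% in RING1B WT and 2.44% in RING1B I53S MTF2 KO cells. Those SUZ12 lists held 1801, 4634 and 706 peaks, with 67.2%, 29.4% and 62.7% of them on chromosome 11. The Parental MTF2 KO list without OHT held 4170, with 24.2% there. Because the lists differed in length and in their chromosome 11 share, no retention or loss of SUZ12 is read from these shares. PCGF6 itself, absent by the rule in Parental −OHT cells, had a peak at 28 sites (13.7%) in Parental, 32 (15.6%) in RING1B WT and 5 (2.44%) in RING1B I53S +OHT cells.

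**Figure D3:**
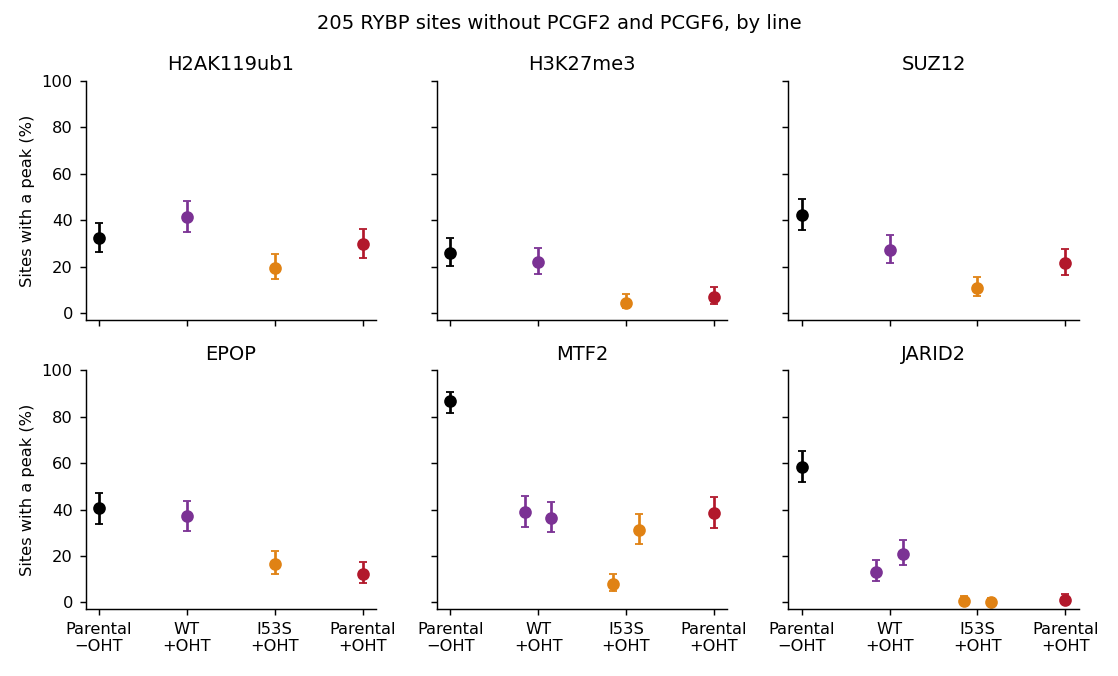
Share of the 205 sites with a peak of H2AK119ub1, H3K27me3, SUZ12, EPOP, MTF2 and JARID2 (y axis, %) in Parental −OHT, RING1B WT +OHT, RING1B I53S +OHT and Parental +OHT cells; each point is 1 library and whiskers are 95% Wilson intervals over sites. H2AK119ub1 stands at 41.5% in RING1B WT and 19.5% in RING1B I53S cells, and the 2 MTF2 libraries of RING1B I53S cells lie apart at 7.80% and 31.2%.

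Genes at these sites were expressed at moderate levels and most were not called changed when RING1B was lost. Peaks of 143 sites lay within 2.5 kb of a start site of 195 genes, of which 145 were protein coding, 67 were on chromosome 11 and 33 had a PCGF2 or PCGF6 peak elsewhere in the same window. Their median level in Parental −OHT cells was 3.01 CPM per kb, with 129 of 195 (66.2%) at 1 or more, close to the genes of PCGF6 sites (median 3.15, 66.6%) and above those of PCGF2 sites (median 0.192, 28.3%). The levels ranged up to 665 CPM per kb. The 128 genes off chromosome 11 had a median of 1.61 (57.0% at 1 or more) and the 67 on it 8.30 (83.6%). The closeness to genes of PCGF6 sites was thus that of the pooled genes, and the other classes were not split in this way. After filtering on low counts, 149 of the 195 were tested among 18154 genes, in 12 libraries. Whole-gene counts of Rnf2, which encodes RING1B, were 48.1 and 62.3 CPM per kb without and 34.9 and 40.4 with OHT in Parental cells. They count exons that are not deleted as well, so they do not check the loss of the protein.

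Calls needed an adjusted p under 0.05 from edgeR's quasi-likelihood test over all genes, together with a log2 change of 1.5 or more in either direction. On OHT in Parental cells, 7 of 149 genes rose (4.70%) and 1 fell (0.671%), where 15.1% of all genes tested rose and 1.83% fell. The adjusted p alone was under 0.05 at 40 of the 149, and at 6228 of all 18154 genes. In RING1B I53S cells 5 rose (3.36%) and 0 fell, against 12.8% and 1.04%, with 48 genes at an unadjusted p under 0.05 in either direction (32.2%, against 37.7% of all genes), and DESeq2 called 6 higher and 0 lower. In RING1B WT cells 0 rose and 0 fell, against 1.34% and 0.0386%, while 20 of the 149 had an unadjusted p under 0.05 (13.4%, against 15.8%) and DESeq2 also called 0. Few genes at these sites were called in any line, and the share called higher lay below that of all genes.

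The median log2 fold change was 0.02 in Parental, −0.02 in RING1B WT and 0.00 in RING1B I53S cells, where all genes tested had medians of 0.03, 0.02 and 0.01. Genes of PCGF2 sites had medians of 1.75, 0.59 and 1.59, with 52.4% called higher in Parental cells. Genes of PCGF6 sites were called higher in 9.49% of cases in Parental and 7.31% in RING1B I53S cells. Since low genes are called more often, the counts were also split by level. Of 131 genes at 1 CPM per kb or more, 5 rose in Parental cells (3.82%), against 7.67% of 13321 genes. Of 18 genes below that level 2 rose (11.1%), against 35.7% of 4833. Without chromosome 11, 5 of 91 genes rose and 1 fell in Parental cells, and 4 of 91 rose in RING1B I53S cells. With the genes left out that have a PCGF2 or PCGF6 peak in the window, 5 of 122 rose and 1 fell in Parental cells. In RING1B I53S cells 4 of these 122 rose. Leaving out Parental −OHT replicate 2 left 4 genes called higher in Parental cells, and the other 11 libraries left 7 or 8.

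**Figure D4:**
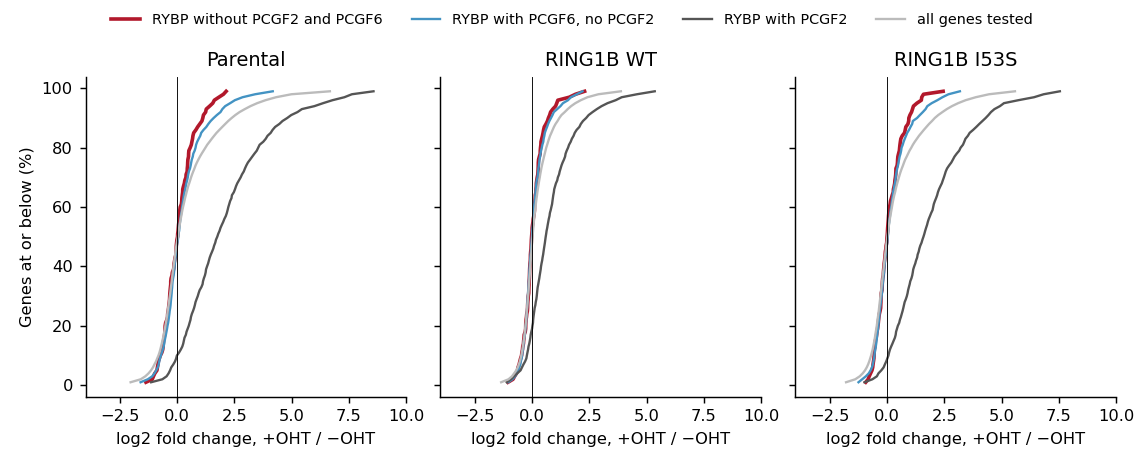
Cumulative share of genes (y axis, %) at or below each log2 fold change on OHT (x axis) in Parental, RING1B WT and RING1B I53S cells, for genes of RYBP sites without PCGF2 and PCGF6 (red), with PCGF6 only (blue), with PCGF2 (dark grey) and all genes tested (light grey). The red curve crosses the 50% level at 0.02, −0.02 and 0.00, and only the dark grey curve is shifted to the right, with medians of 1.75, 0.59 and 1.59.

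Most of the genes called had a SUZ12 peak at the site. Of 64 tested genes with such a peak 6 rose in Parental cells (9.38%, still below the 15.1% of all genes), against 1 of 85 without one, and in RING1B I53S cells 5 of 64 rose against 0 of 85. With H3K27me3 at the site 5 of 22 rose in Parental cells (22.7%), against 2 of 127. The genes with these marks were lower, with a median of 1.59 CPM per kb with and 4.92 without SUZ12 and 1.34 with and 3.71 without H3K27me3 in Parental −OHT cells, and low genes were called more often, so mark and level were not separated. With H2AK119ub1 at the site 2 of 32 rose in Parental cells (6.25%, below the 15.1% of all genes), against 5 of 117 without, a smaller gap. In RING1B I53S cells 0 of 32 rose, against 5 of 117 without, so the 2 lines went opposite ways. Of the 9 genes called in Parental or RING1B I53S cells, MTF2 (at 86.8% of all 205 sites) and JARID2 (at 58.5%) were at the sites of all 9, SUZ12 at 8, EPOP at 7, H3K27me3 at 5, CBX7 and H2AK119ub1 at 2 and RING1B at 1. These are descriptions of small counts and no test of the split was made.

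Dppa3, a maternal factor that guards DNA methylation in the early embryo and marks naive ESCs, had the lowest adjusted p among those that rose. It was the only one of 15 pluripotency genes called higher in Parental cells, where 6 were called lower. Its site, at chr6:122624215-122625246, had a RYBP score of 21.3, and the nearest PCGF2 peak was 2037 bp away. The promoter window of Dppa3 itself held a PCGF2 or PCGF6 peak, and the RYBP site lay more than 1 kb from its start sites. Dppa3 is therefore not a gene whose promoter is free of both PCGF proteins. Dppa3 stood at 121.4 and 113.6 CPM in Parental −OHT and 335.1 and 364.0 in Parental +OHT libraries, at 119.5 and 167.8 in RING1B WT +OHT and at 230.6 and 255.5 in RING1B I53S +OHT libraries. The RING1B WT +OHT values overlapped the −OHT values of that line (146.4 and 143.4), whereas those of the other lines were separate. The log2 fold change was 1.57 (SE 0.18, adjusted p = 2.97e-06) in Parental, −0.01 (SE 0.18, adjusted p = 0.985) in RING1B WT and 0.96 (SE 0.18, adjusted p = 0.000589, under the fold threshold) in RING1B I53S cells. Without Parental −OHT replicate 2 the Parental value was 1.49, under the threshold of 1.5. Dppa3 has processed pseudogene copies, so its uniquely mapped counts are uncertain.

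Abcc3, an organic anion transporter, and Tmem130 rose in both lines without active RING1B. Abcc3 stood at 3.75 and 2.84 CPM in Parental −OHT and 12.3 and 16.3 in Parental +OHT libraries (log2 fold change 2.09, SE 0.35, adjusted p = 0.000121), and at 12.5 and 20.1 in RING1B I53S +OHT libraries (1.57, SE 0.33, adjusted p = 0.00136). Without RING1B I53S +OHT replicate 2 that value was 1.17. Tmem130 stood at 4.56 and 3.21 CPM without OHT and 17.4 and 13.3 with it in Parental cells (1.96, SE 0.36, adjusted p = 0.000295), and reached 14.2 and 17.6 in RING1B I53S +OHT libraries (2.16, SE 0.36, adjusted p = 0.000167). In RING1B WT cells the log2 fold changes were 0.94 (adjusted p = 0.171) and 1.09 (adjusted p = 0.178).

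Meis3, a TALE homeodomain transcription factor, stood at 2.20 and 1.61 CPM in Parental −OHT and 6.75 and 5.36 in Parental +OHT libraries. It was at 2.21 and 2.37 in RING1B WT +OHT and at 6.82 and 8.18 in RING1B I53S +OHT libraries. Meis3 was called in Parental (1.64, SE 0.39, adjusted p = 0.00256) and RING1B I53S cells (1.52, SE 0.37, adjusted p = 0.00426), and its RING1B I53S value was near the threshold and fell to 1.37 without RING1B I53S +OHT replicate 2. Leaving out Parental −OHT replicate 2 gave a Parental value of 1.42, and leaving out +OHT replicate 1 gave 1.47.

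Arhgef37, a guanine nucleotide exchange factor, was low, at 0.407 and 0.371 CPM without OHT and 2.05 and 3.90 with it in Parental cells (log2 fold change 2.88, SE 0.65, adjusted p = 0.00178). In RING1B I53S cells it was 2.77 (SE 0.59, adjusted p = 0.00163) and in RING1B WT cells 2.38 (adjusted p = 0.101). 2010001A14Rik, a noncoding transcript, rose by 2.02 (SE 0.45, adjusted p = 0.00186) in Parental cells, from 1.96 and 0.989 to 7.09 and 5.26 CPM. Its values in RING1B WT cells were similar in size (1.88, adjusted p = 0.0734), and this gene was called there when no filter on low counts was used (1.86, adjusted p = 0.0469). Both of these genes thus had a positive estimate in all 3 lines.

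Exph5, a Rab27 effector, rose in Parental cells only by the threshold (1.62, SE 0.46, adjusted p = 0.00915), from 1.39 and 1.24 to 4.36 and 3.80 CPM. The call was lost without Parental −OHT replicate 1 (adjusted p = 0.0505), Parental −OHT replicate 2 (0.0655) or Parental +OHT replicate 1 (0.0654). Arhgap24, a Rac GTPase-activating protein, was called in RING1B I53S cells (2.72, SE 0.73, adjusted p = 0.00854), from 0.773 and 0.192 to 4.11 and 2.67 CPM. That call was lost without RING1B I53S −OHT replicate 2 (adjusted p = 0.109) or RING1B I53S +OHT replicate 1 (0.0535). The log2 fold changes without these libraries were 1.68, 1.52 and 1.52 for Exph5 and 2.1 and 2.39 for Arhgap24, still past the fold threshold.

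Pde4d, a cAMP phosphodiesterase, was the only one of the 149 genes called lower. It stood at 61.1 and 57.9 CPM in Parental −OHT and 18.1 and 15.0 in Parental +OHT libraries, at 39.3 and 35.0 in RING1B WT +OHT and at 24.6 and 18.8 in RING1B I53S +OHT libraries. The Parental groups were well apart, and the log2 fold change was −1.84 (SE 0.24, adjusted p = 9.10e-06). It was −1.25 (SE 0.24, adjusted p = 0.000564) in RING1B I53S cells, where it passed the fold threshold without RING1B I53S −OHT replicate 2 (−1.55), and −0.35 (adjusted p = 0.495) in RING1B WT cells. Its site carried MTF2, JARID2 and SUZ12 peaks and no H3K27me3 or H2AK119ub1 peak.

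**Figure D5:**
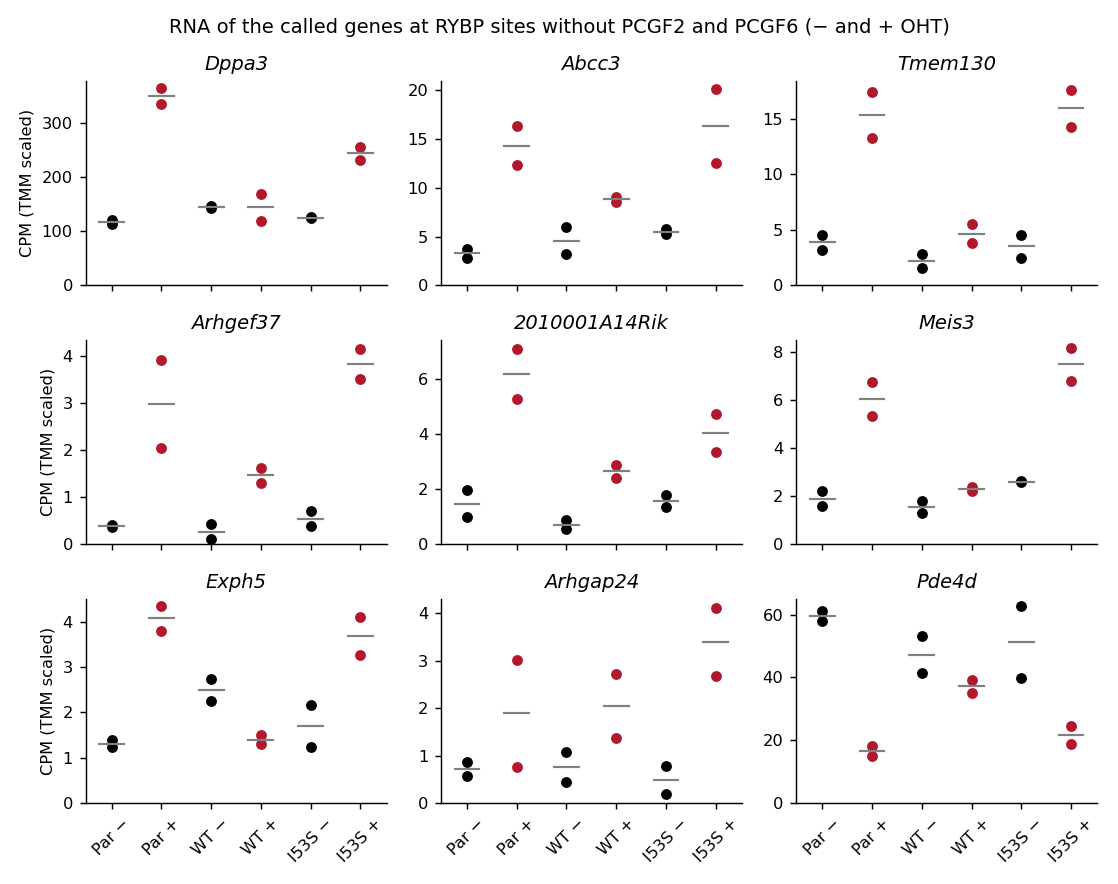
CPM scaled by TMM (y axis, from 0, one scale per gene) of the 9 genes called in Parental or RING1B I53S cells, in the 2 libraries of each of 6 groups, −OHT in black and +OHT in red, with the mean as a grey line. Dppa3 rises from 121.4 and 113.6 to 335.1 and 364.0 in Parental cells and Pde4d falls from 61.1 and 57.9 to 18.1 and 15.0, and the RING1B WT +OHT points, at 119.5 and 167.8 for Dppa3 and 39.3 and 35.0 for Pde4d, lie between these levels or near the −OHT level.

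Direct tests between lines found few differences. With OHT in both, RING1B I53S cells had 2 of 149 genes higher than RING1B WT cells (1.34%) and 0 lower, where 6.02% and 0.600% of all genes were. Of the 149, 32 had an unadjusted p under 0.05 in this comparison (21.5%, against 28.6% of all genes), and DESeq2 also called 2 higher and 0 lower. These were Tmem130 (log2 fold change 1.78, SE 0.36, adjusted p = 0.00273) and Meis3 (1.71, SE 0.38, adjusted p = 0.00590), and neither was called without RING1B WT +OHT replicate 1 (1.53 and 1.65, adjusted p = 0.0708 and 0.0752). The difference of the OHT effects, RING1B I53S minus RING1B WT, was called at 0 genes higher and 0 lower, against 0.209% and 0.138% of all genes; 8 had an unadjusted p under 0.05 (5.37%, against 9.43%), and DESeq2 also called 0. Thus no gene was shown to respond differently in the RING1B WT and RING1B I53S lines. The difference Parental minus RING1B WT, added after the OHT effects were seen, was called at Dppa3 (1.59, SE 0.26, adjusted p = 0.00219) and at 0 genes lower, against 1.10% and 0.435% of all genes. DESeq2 also called 1 higher and 0 lower, and 15 genes had an unadjusted p under 0.05 (10.1%, against 14.2%). Dppa3 was not called without RING1B WT +OHT replicate 1 (1.36, adjusted p = 0.0455).

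Loss of EED gave no call. The Eed gene itself fell from 66.7 and 45.2 to 17.5 and 11.4 CPM per kb. Of 162 genes tested in Eed fl/fl cells 0 rose and 0 fell on OHT, where 0.00795% of all 25170 genes rose and 0% fell; 10 of the 162 had an unadjusted p under 0.05 (6.17%, against 5.45%), and DESeq2 called 0. The median log2 fold change was 0.08, equal to that of all genes. Genes with H3K27me3 at the site had a median of 0.30 over 30 tested genes.

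The tested genes of the other strongest sites were not called. In Parental cells the log2 fold change was 0.21 (adjusted p = 0.616) for Gnb2, 1.28 (0.260) for Epo, 0.06 (0.825) for Sdhaf3, −0.53 (0.0806) for Apbb2 and −0.05 (0.906) for Zkscan6. Ccdc57, whose site kept RYBP in Parental +OHT cells, had a value of −0.32 (0.367), not past the threshold. Hcrt, Kcnh4 and Hes3 were too low to be tested. Without the filter, Kcnh4 was called higher in RING1B I53S cells (3.20, adjusted p = 0.0178), on 8 and 20 counts with OHT and 2 and 1 without. Prss32, a serine protease gene also chosen after its values were seen, was called higher in Parental cells without the filter (adjusted p = 0.00512), on 4 and 14 counts with OHT and 0 and 0 without.

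Of 11 gene lists, 3 had 1 member each among the 195 genes, which are themselves a small part of the 55341 genes in the table. Jarid2 was the only one of 12 PRC2 subunit genes, and it has a PCGF6 peak 769 bp from the site. Jarid2 stood at 987 and 821 CPM in Parental −OHT and 639 and 571 in Parental +OHT libraries, a log2 fold change of −0.58 (SE 0.17, adjusted p = 0.0140) that is under the fold threshold. Dppa3 was the only one of 15 pluripotency genes and Rpl27, a ribosomal protein gene, the only one of 18 of its list (−0.21, adjusted p = 0.404). No site lay at any of 33 variant PRC1 genes, 12 canonical PRC1 genes, 19 germline genes in the table (12 of which had a PCGF6 site) or 37 developmental transcription factors (24 of which had a PCGF2 site), nor at a gene of the endoderm, trophoblast, fibroblast or cell cycle lists.

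Markers of cell state moved with these comparisons. Of 8 primitive endoderm genes 7 rose in Parental and 7 in RING1B I53S cells on OHT and 0 in RING1B WT cells. Their summed level was 37.6 and 33.4 CPM in Parental −OHT, 55.6 and 69.1 in RING1B WT +OHT and 101 and 128 in RING1B I53S +OHT libraries. Of 7 tested trophoblast genes 5 rose in Parental, 4 in RING1B I53S and 1 in RING1B WT cells. Of 4 tested fibroblast genes 2 rose and 1 fell in Parental cells, and 1 rose in RING1B I53S cells. Over all genes tested, 15.1%, 12.8% and 1.34% rose in Parental, RING1B I53S and RING1B WT cells. A PCGF2 site lay at 4 of the 8 endoderm and 5 of the 8 trophoblast genes. Among tested genes of PCGF2 sites, 52.4% were called higher in Parental cells. Of the 15 pluripotency genes 6 fell in Parental (median log2 fold change −1.30), 4 in RING1B I53S (−0.86) and 0 in RING1B WT cells (−0.19), and their summed level was 5509 and 6284 CPM in Parental −OHT, 5054 and 5040 in RING1B WT +OHT and 3096 and 2957 in RING1B I53S +OHT libraries. The part of such cell states in the changes above was not tested, and cell state was not separated from change at genes of PCGF2 sites. In bulk RNA, fewer cells of a type and less RNA per cell cannot be told apart.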

How the data were processed

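Samples were grouped by their labels: 70 ChIP-seq libraries and 4 input libraries with a peak list, and 16 RNA-seq libraries. The series also holds input libraries for which no peak list was used, among them an input of E14 cells. The authors aligned ChIP-seq reads uniquely with Bowtie 1.2.2 to mm10 (with dm6 for spiked-in histone libraries), removed duplicates and called peaks per library with MACS2 2.1.1 against an input at a p threshold of 1e-10; each deposited peak score is a −log10 p. RNA-seq was by SMART-seq2; the authors aligned with STAR 2.7 and deposited raw counts per gene from featureCounts without strand, so antisense pairs cannot be told apart. Their comparison columns (DESeq2 1.20 fold changes and p-values) and a normalized table, whose Eed values equalled the counts at 221364 of 221364 entries, were not used. The series design calls the RNA replicates biological.

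Overlap of 1 bp counted as a peak at a site. Shares carry 95% Wilson intervals and differences Newcombe intervals. Start sites came from the GENCODE M21 annotation of GRCm38, matched by gene name, and sequences from the RefSeq genome of that build. Counts were fitted over 12 libraries (Eed fl/fl apart) with edgeR 4.0.16 (filterByExpr, TMM, quasi-likelihood, Benjamini-Hochberg); DESeq2 1.42.0 was an alternative, and R 4.3.3, Python 3.11.15, pandas 2.3.3, scipy 1.17.1 and pysam 0.24.0 were used. Libraries held 6957248 to 12743460 counted reads. Tested on simulated data, the fit recovered 77% of 100 genes changed by a log2 fold change of 2 and 87% of those changed by 3 (Parental, 18154 genes), and 58% and 87% for Eed fl/fl (25170 genes).

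The sites and gene lists were chosen with earlier results of these data known. Named genes were those of the 8 highest-scoring sites, up to 5 of lowest adjusted p per direction and comparison, those of sites kept in Parental +OHT cells, and listed genes with a site; Exph5 and others said to be so were added afterwards. Alternatives were another score floor, overlap, promoter width, normalization, filter, a replicate block, leaving out each library, and, added after seeing the data, leaving out chromosome 11. Some named genes and 1 sequence are not reported here.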

Additional observations from a re-analysis of the deposited data

Results flagged for a closer look

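The OHT effect on 2 genes with such a site differed between the Parental and RING1B WT lines by the adjusted p of a direct test of the difference (edgeR, Parental minus RING1B WT, a contrast added after the OHT effects were seen). For Dppa3 the difference was 1.59 on the log2 scale (SE 0.26, adjusted p = 0.00219), with the 2 Parental +OHT libraries above every other library of the 3 lines; over the alternatives it ranged from 1.36 to 1.85. For Pde4d it was −1.49 (SE 0.33, adjusted p = 0.0222), under the fold threshold of 1.5 and so not a call, with the 2 Parental +OHT libraries below all others; over the alternatives it ranged from −1.69 to −1.35 and the adjusted p from 0.00243 to 0.128.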

How the results depend on the processing

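Of 364 recomputed summary values under the alternatives, 292 stayed close to those reported and 72 moved; no called value changed sign. The order of the RYBP shares kept, 4.39% in RING1B WT and 4.88% in RING1B I53S cells, turned without chromosome 11 (3.33% and 2.5%) and at scores of at least 20, so no order is read from it. Median log2 fold changes lay near 0 and changed sign, from 0.02 to −0.08 without Parental −OHT replicate 2 in Parental and from −0.02 to 0.05 without RING1B WT −OHT replicate 1 in RING1B WT cells. Only 7 sites were left with a RYBP score of at least 20, and 120 without chromosome 11. Over those 7 sites, RYBP was kept at 0% in Parental, 28.6% in RING1B WT and 14.3% in RING1B I53S +OHT cells. Kept peaks that themselves scored at least 20 were at 0%, 0% and 0.976% of the 205 sites. For marks in Parental −OHT cells, mark peaks scoring at least 20 gave AEBP2 0%, CBX7 0.976%, EPOP 17.1%, H2AK119ub1 17.6%, H3K27me3 14.1%, JARID2 42.0%, MTF2 64.9%, RING1B 0% and SUZ12 22%. After OHT the same floor gave H2AK119ub1 9.27% in Parental, 27.8% in RING1B WT and 5.37% in RING1B I53S cells, H3K27me3 1.95%, 13.2% and 1.95%, and SUZ12 7.32%, 8.29% and 3.41%, with EPOP at 2.44% in Parental cells. With at least 50% of the site covered, H2AK119ub1 was 23.4% in Parental −OHT, 23.4% in Parental +OHT and 30.7% in RING1B WT +OHT cells, H3K27me3 17.6%, 3.41% and 12.2%, and RING1B 2.93% in Parental −OHT cells. Without chromosome 11, AEBP2 was 0%, EPOP 29.2% and H2AK119ub1 22.5% in Parental −OHT cells, EPOP 5.83% in Parental +OHT cells, and H2AK119ub1 31.7% and H3K27me3 16.7% in RING1B WT +OHT cells. Over the 7 sites scoring at least 20, the Parental −OHT shares were AEBP2 14.3%, CBX7 28.6%, H2AK119ub1 57.1%, H3K27me3 42.9%, JARID2 71.4% and RING1B 14.3%; after OHT, H2AK119ub1 was 57.1%, 71.4% and 57.1% in Parental, RING1B WT and RING1B I53S cells, H3K27me3 0%, 28.6% and 14.3%, and SUZ12 14.3%, 14.3% and 0%. Fewer sites or stricter peaks enter each of these by construction.

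Among the genes of the 7 strongest sites, 1 rose and 0 fell in Parental cells, 0 rose in RING1B I53S cells and 0 were higher in RING1B I53S than in RING1B WT +OHT cells. Without a filter on low counts, 1 gene (2010001A14Rik) rose in RING1B WT cells and the difference Parental minus RING1B WT was called higher at 2 genes; it was called at 0 genes with a promoter of 1 kb or without the genes that have a PCGF peak in the window. Leaving out each library in turn gave 4 to 8 genes higher in Parental cells, 0 to 1 higher in RING1B WT cells (1, Zap70, without RING1B WT −OHT replicate 1), 4 to 7 higher and 0 to 1 lower in RING1B I53S cells (1, Pde4d, without RING1B I53S −OHT replicate 2), 0 to 2 higher in RING1B I53S than RING1B WT +OHT cells, and 0 to 1 higher and 0 to 1 lower for Parental minus RING1B WT. With the replicate number as a block, 7 genes rose and 1 fell in Parental cells, 0 and 0 in RING1B WT, 6 and 0 in RING1B I53S, 2 and 0 in RING1B I53S against RING1B WT, 0 and 0 in Eed fl/fl cells, and the difference Parental minus RING1B WT was called at 2 genes higher (Dppa3 and Exph5) and 1 lower (Pde4d). Over all genes, the Eed fl/fl calls rose from 2 higher and 0 lower to 140 and 21 with the block. The pairing was not used: each group has 2 numbers, and the correlations of the replicate differences between groups ranged from −0.0033 to 0.301 (0.459 in Eed fl/fl). The single ChIP-seq library per condition limits every share of sites.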
